A study of Mus musculus with 9 samples.

Results

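The Wnt ligands, their receptors, agonists and antagonists and the core of the pathway below them were described in Pan02 cells, a mouse pancreatic adenocarcinoma line. A gene was a member if its symbol was that of a Wnt, Frizzled (Fzd), Sfrp, Dkk or R-spondin (Rspo) gene, or Lrp5, Lrp6, Axin1, Axin2, Lef1, Tcf7, Tcf7l1, Tcf7l2, Nkd1, Nkd2, Znrf3, Rnf43, Ctnnb1, Apc, Porcn, Wls or Wif1. Of the 19505 genes measured, 55 were members, each read from 1 probe set. Tcf7, Rnf43 and Ctnnb1, the gene of beta-catenin itself, had no named probe set and were not analysed here.

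RNA was measured on Clariom S mouse arrays in 4 transduced Pan02 lines. Pan02OE carried a lentiviral open reading frame of mouse NLRX1 and Pan02OE-CTL control lentiviral particles of the same system, whereas Pan02KD carried 1 lentiviral shRNA against NLRX1 and Pan02KD-CTL a scrambled shRNA. All 4 lines were selected in puromycin and checked by GFP and by a western blot for NLRX1 protein. Of 4 shRNA sequences, the paper used the 1 that it found to lower NLRX1 effectively. The lines were grown in complete RPMI medium. That medium was replaced by the same medium (normal medium below) or by medium with a low dose of H2O2 for 24 hours. Each line was 1 transduced population with 1 array in each medium, 8 arrays in all. The spread behind the p-values is how far the difference between media varied among the lines, after a medium term common to them. The moderated test weights the spread of each gene (3 degrees of freedom) with a value drawn from all genes (6.17 degrees of freedom). Neither is a spread between replicate cultures or between independently made lines.

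Values are log2 signals, and a difference is the first line minus the second over the means of 2 arrays, with its SE from limma and a p-value adjusted by the Benjamini-Hochberg method over all 19505 genes. A member is said to have risen or fallen where that adjusted p was under 0.05. Arrays that do not overlap between lines are mentioned as description only. With 2 arrays per line this was also seen in members that did not pass, such as Apc and Axin2 in Pan02OE against Pan02OE-CTL. It was seen in 33 of 55 members in that comparison. The count was 29 in the arrays labelled Pan02KD against Pan02KD-CTL and 33 between the controls. The share over all genes is not given here. The 23 background probe sets on the arrays, which match no mouse gene, reached 7.48, and a member was called above background where at least 1 line mean exceeded that level.

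Wnt proteins are lipid-modified ligands: Porcn attaches the lipid in the endoplasmic reticulum and Wls carries the ligand to the cell surface. There a Wnt binds a Frizzled receptor with the co-receptor Lrp5 or Lrp6, the complex of Axin and Apc no longer has beta-catenin destroyed, and beta-catenin joins TCF and LEF factors on target genes. R-spondins raise the number of Frizzled receptors by holding off the ubiquitin ligases Znrf3 and Rnf43, Sfrp and Wif1 proteins bind Wnts, and Dkk proteins bind Lrp5 and Lrp6. In the exocrine pancreas the pathway is known for its roles in development, in regeneration after injury and in cancers, some of which depend on secreted Wnt ligands.

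Fzd1 and Wls fell in Pan02OE and rose in the arrays labelled Pan02KD. Fzd4, a Frizzled gene near background, rose in Pan02OE, a call lost whichever array of either line was left out. The promoters of these 3 members are shown. They are the 250 bases before the RefSeq start (build GRCm38.p6), written 5′ to 3′ on the strand of the gene. Capitals mark CTTTG or its reverse complement CAAAG, the core of the site that TCF and LEF factors bind.
Fzd1 (chr5:4758217-4758466, - strand): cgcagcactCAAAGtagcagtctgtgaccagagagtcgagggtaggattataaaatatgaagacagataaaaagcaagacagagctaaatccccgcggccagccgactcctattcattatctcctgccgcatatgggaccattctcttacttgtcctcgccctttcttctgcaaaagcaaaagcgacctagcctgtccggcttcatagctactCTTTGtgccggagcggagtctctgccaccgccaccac
Wls (chr3:159839400-159839649, + strand): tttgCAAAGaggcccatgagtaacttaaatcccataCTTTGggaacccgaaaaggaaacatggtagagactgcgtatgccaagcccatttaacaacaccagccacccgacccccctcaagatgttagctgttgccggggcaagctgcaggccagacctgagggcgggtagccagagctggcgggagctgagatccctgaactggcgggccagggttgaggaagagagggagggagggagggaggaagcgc
Fzd4 (chr7:89404116-89404365, + strand): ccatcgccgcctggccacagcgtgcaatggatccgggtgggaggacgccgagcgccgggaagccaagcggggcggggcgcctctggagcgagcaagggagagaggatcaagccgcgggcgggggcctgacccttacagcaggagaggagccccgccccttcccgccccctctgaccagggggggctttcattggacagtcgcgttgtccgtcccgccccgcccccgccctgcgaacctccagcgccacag

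The core stood at 2 places in the Fzd1 window, at 2 in the Wls window and at 0 in the Fzd4 window, where 72.8% of the bases were G or C, against 51.2% for Fzd1 and 58% for Wls. A core this short was held by 48.6% of all 32851 RefSeq mouse promoters of the same length, and by 21 of the 42 promoters listed for members. The promoter table held 35 of the 55 members, and Fzd2, Fzd6, Rspo3 and Porcn were not among them. Whether the core goes with the direction of a change was not tested. The longer forms CTTTGAT and CTTTGAA, searched on both strands and each containing the core, stood in the promoters of Dkk1, Wnt5b and Wnt11, which is 7.14% of member promoters against 7.48% of all promoters. A match is a description of the letters and not of a bound site, and none of these 3 genes was above background in any line.

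Nlrx1 was the first gene checked against the labels. Its log2 signal in Pan02OE was 17.10 in normal medium and 17.31 in H2O2, and in Pan02OE-CTL it was 6.89 and 6.90. In the arrays labelled Pan02KD it was 6.68 and 6.56, and in Pan02KD-CTL 5.96 and 6.40. The overexpression was plain, at least 849-fold over its control, whereas all 6 other arrays lay under the brightest background probe set and the arrays labelled Pan02KD were not below their control (difference 0.44 ± 0.17, SE, 95% interval 0.05 to 0.84, limma adjusted p = 0.15). A fall of Nlrx1 within the background range could not be measured, so each direction given below for the knockdown comparison rests on the label and not on a measured loss of Nlrx1 RNA. The paper's western blot for NLRX1 protein is separate evidence that these arrays do not hold.

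The tissue label was set beside marker genes. Of 11 epithelial markers measured, 7 were above background in at least 1 line, among them Cdh1 (E-cadherin) and the keratins Krt8, Krt18 and Krt19, but Epcam was not. None of the acinar, islet, endothelial or myeloid markers was above background in any line, and of the lymphocyte markers only Cd4 was. The array medians ran from 6.51 to 6.58. In bulk RNA, fewer cells expressing a gene and less RNA per cell cannot be told apart.

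Which members did these cells express? Above background were 16 of 55 members (29.1%), where 45% of all genes were. They comprised 2 ligands (Wnt7b and Wnt10a), both secretion factors (Porcn and Wls), 7 of 12 receptors and co-receptors (Fzd1, Fzd2, Fzd4, Fzd5, Fzd6, Fzd7 and Lrp6), 1 R-spondin (Rspo3), the ubiquitin ligase Znrf3, Axin1 and Apc of the destruction complex, and 1 nuclear factor (Tcf7l2). Of the 19 Wnt ligands, 17 were not above background, and neither were the 9 secreted antagonists, Nkd1 and Nkd2, which inhibit Dishevelled, Rspo1, Rspo2 and Rspo4, or Fzd3, Fzd8, Fzd9, Fzd10 and Lrp5. Axin2, Lef1 and Tcf7l1 were not above background either. The line means of these 39 members ran from 3.49 to 7.47. A signal in that range sets no lower limit, so these transcripts were not detectable above background rather than shown to be absent.

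Axin2 and Lef1, which in many tissues are themselves switched on by beta-catenin, were in the background range in all arrays. Axin2 was 4.41 and 4.47 in Pan02OE, 4.25 and 4.22 in Pan02OE-CTL, 4.39 and 4.20 in the arrays labelled Pan02KD and 4.33 and 4.31 in Pan02KD-CTL (normal medium first, here and below). Lef1 was 5.04 and 4.71, 4.64 and 4.55, 4.22 and 4.45, and 5.12 and 4.64 in the same order of lines. Neither gene was detectable above background in any line, and no fold is given. Nkd1 and Dkk1, a further pair known as targets of the pathway, were also not above background, whereas Znrf3, which is a target in intestine as well as a brake on the receptors, was above it, with line means from 12.10 to 12.50.

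The first comparison asked what NLRX1 overexpression went with. Frizzled and secretion genes changed in both directions: Fzd1, Fzd2, Wls and Axin1 fell, and Fzd4, Fzd6, Porcn and Rspo3 rose in Pan02OE relative to Pan02OE-CTL. With Wnt4 and Dkk2, whose line means were not above background, 10 of 55 members passed the test (18.2%), where 16.5% of all genes did. The background share was 7.02% of genes for a rise and 9.49% for a fall. Of the 16 members above background 8 passed (50%), against 31.4% of all genes above background, and the median absolute difference was 0.20 over all members, beside 0.22 over all genes, but 0.58 over members above background, beside 0.37 over all such genes. The share of all members was close to that of all genes. The filter on background is not independent of a difference, since a gene enters by its brightest line. Rspo3 and Fzd4 passed with Pan02OE-CTL in the background range. The shares and medians above background are therefore given as description only.

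The second comparison, of the arrays labelled Pan02KD with Pan02KD-CTL, moved nearly the same set the other way: Fzd1, Fzd2 and Wls rose, Fzd6, Porcn and Rspo3 fell, and Wnt4 and Dkk2 again passed the test within the background range. In all 8 of 55 members passed (14.5%), where 13.6% of all genes did (7.59% by a rise and 5.97% by a fall). Of the 16 members above background 6 passed (37.5%), against 26.3% of all genes above background, and the median absolute difference was 0.15, beside 0.22 over all genes, but 0.37 above background, beside 0.33. The limit of that filter holds here too, with Rspo3 in the background range in the arrays labelled Pan02KD. The overexpression comparison is of other lines, but the fit of all 8 arrays gave both comparisons the same estimate of the spread. Their calls are thus not independent. All 8 members had also passed there, and all 8 had the opposite sign. Such opposition was general on these arrays, since 95.4% of the 1488 genes called in both comparisons had opposite signs.

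**Figure D1:**
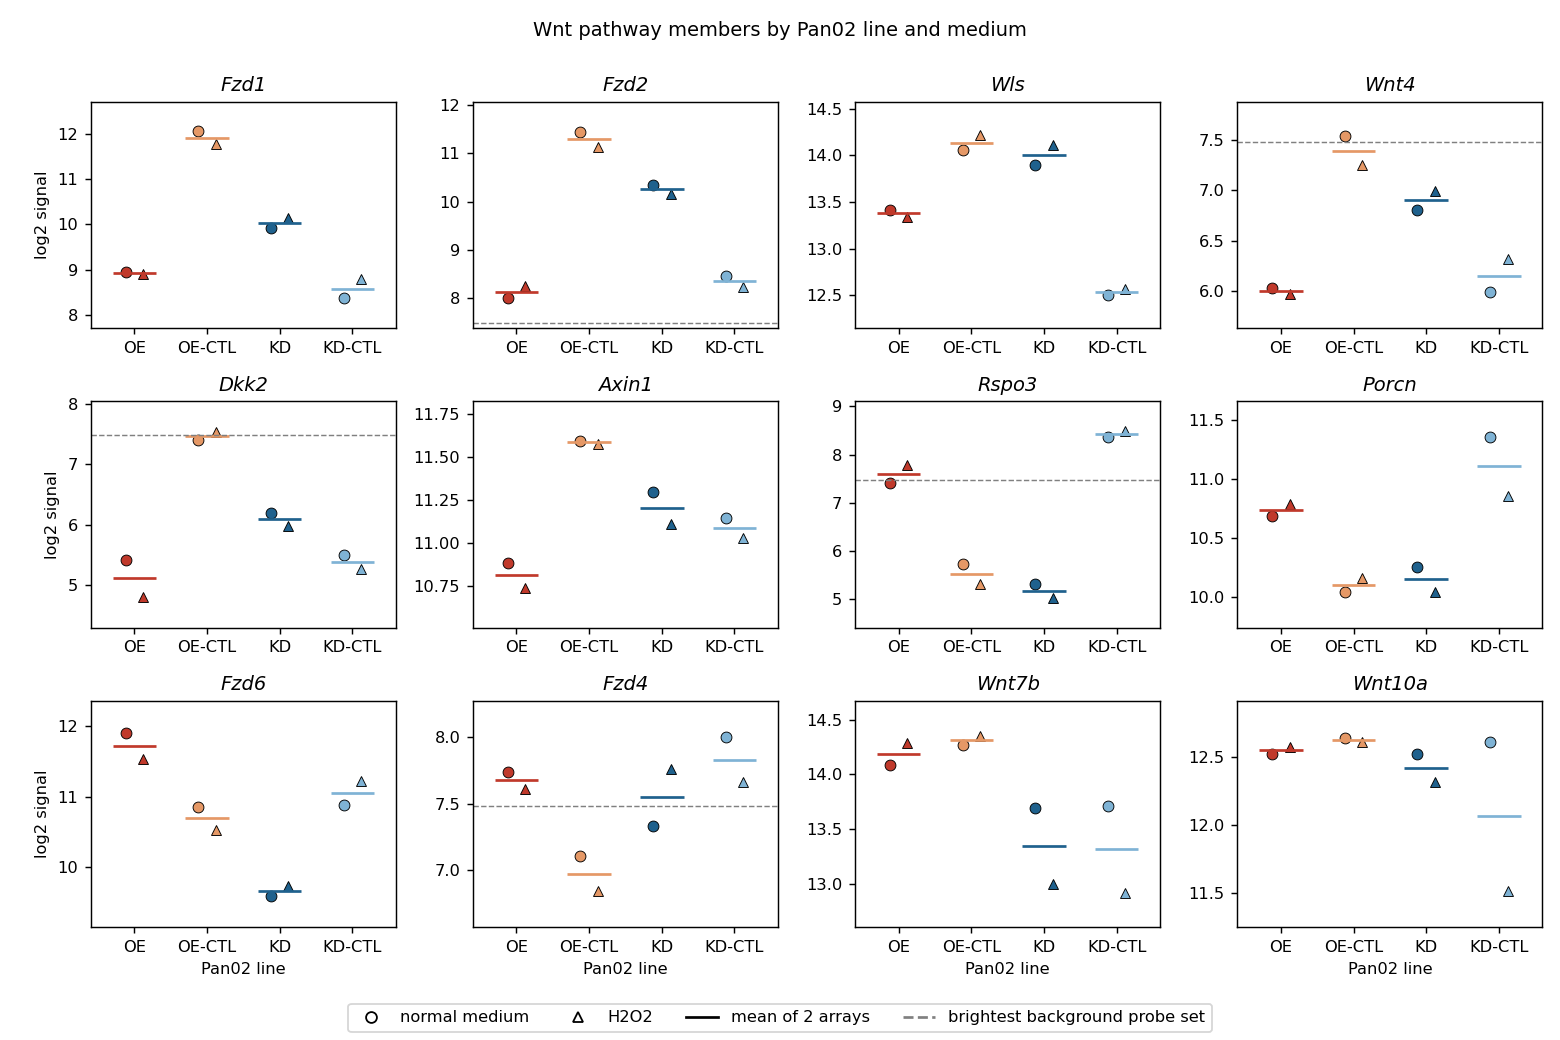
Log2 signal (y axis, a separate range for each gene) of 12 Wnt pathway members in the 4 Pan02 lines (x axis), with 1 point per array (circles normal medium, triangles H2O2), bars at the mean of 2 arrays and a dashed line at the brightest background probe set, 7.48, where it falls in the range. Fzd1 and Fzd2 were highest in both Pan02OE-CTL arrays, Rspo3 cleared background in 3 arrays (both of Pan02KD-CTL and 1 of Pan02OE), and Wnt10a stood lower in the H2O2 array of Pan02KD-CTL.

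Among the receptors the largest changes were those of Fzd1 and Fzd2, which encode receptors that pass Wnt signals both through beta-catenin and along other routes. The log2 signal of Fzd1 was 8.95 and 8.90 in Pan02OE, 12.05 and 11.76 in Pan02OE-CTL, 9.91 and 10.15 in the arrays labelled Pan02KD and 8.37 and 8.79 in Pan02KD-CTL. The Pan02OE-CTL arrays stood above all others and the lines of each comparison did not overlap. Fzd1 fell 7.89-fold in Pan02OE (difference -2.98 ± 0.19, SE, limma adjusted p = 1.3e-05) and rose 2.74-fold in the arrays labelled Pan02KD (1.45 ± 0.19, SE, adjusted p = 0.0013). Pan02OE and Pan02KD-CTL, the lowest lines, were not separated by the test (0.35, 95% interval -0.08 to 0.78, adjusted p = 0.37).

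Fzd2 had the same order of lines at the top. Its log2 signal was 8.00 and 8.25 in Pan02OE, 11.45 and 11.13 in Pan02OE-CTL, 10.35 and 10.15 in the arrays labelled Pan02KD and 8.47 and 8.24 in Pan02KD-CTL. It fell 8.98-fold in Pan02OE (-3.17 ± 0.18, SE, limma adjusted p = 6.2e-06) and rose 3.73-fold in the arrays labelled Pan02KD (1.90 ± 0.18, SE, adjusted p = 2e-04). Pan02OE and Pan02KD-CTL overlapped, and the test did not separate them (-0.23, 95% interval -0.63 to 0.17, adjusted p = 0.55). The arrays labelled Pan02KD stayed below Pan02OE-CTL, with a difference of -1.04 for Fzd2 (limma adjusted p = 0.0073) and -1.88 for Fzd1 (adjusted p = 0.00043).

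Fzd6 and Fzd4 moved against Fzd1 and Fzd2. Fzd6, which is known for orienting hairs through planar cell polarity in the mouse, was 11.91 and 11.54 in Pan02OE, 10.86 and 10.53 in Pan02OE-CTL, 9.60 and 9.74 in the arrays labelled Pan02KD and 10.89 and 11.23 in Pan02KD-CTL. It was highest in Pan02OE and lowest in the arrays labelled Pan02KD, with no overlap between the lines of either comparison. It rose 2.04-fold in Pan02OE (1.03 ± 0.20, SE, limma adjusted p = 0.0076) and fell 2.62-fold in the arrays labelled Pan02KD (-1.39 ± 0.20, SE, adjusted p = 0.0021). The 2 control lines were the closest pair in its order and were not separated by the test (0.36, 95% interval -0.09 to 0.82, adjusted p = 0.29). The call in Pan02OE was lost without the normal-medium array of Pan02OE or without the H2O2 array of Pan02OE-CTL, with adjusted p up to 0.091.

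Fzd4, a receptor for the ligand Norrin as well as for Wnts, lay near background. It was 7.74 and 7.61 in Pan02OE, 7.10 and 6.85 in Pan02OE-CTL, 7.34 and 7.76 in the arrays labelled Pan02KD and 8.00 and 7.66 in Pan02KD-CTL. Both Pan02OE-CTL arrays were under the brightest background probe set, so the rise in Pan02OE was at least 1.15-fold (measured difference 0.70 ± 0.20, SE, limma adjusted p = 0.042), and leaving out any 1 array of either line lost the call (adjusted p up to 0.25). The arrays labelled Pan02KD overlapped with those of Pan02KD-CTL (-0.28, 95% interval -0.74 to 0.17, adjusted p = 0.44).

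The co-receptor Lrp6 was 12.07 and 11.92 in Pan02OE, 11.50 and 11.65 in Pan02OE-CTL, 11.85 and 11.59 in the arrays labelled Pan02KD and 12.06 and 12.14 in Pan02KD-CTL. The test was passed neither in Pan02OE (0.42 ± 0.16, SE, limma adjusted p = 0.13) nor in the arrays labelled Pan02KD (-0.38 ± 0.16, SE, adjusted p = 0.18). Lrp5 was 6.41 and 6.47 in Pan02OE, 6.06 and 6.52 in Pan02OE-CTL, 5.49 and 5.25 in the arrays labelled Pan02KD and 5.71 and 5.37 in Pan02KD-CTL. Its signals all lay in the background range, and they overlapped between the lines of both comparisons. Fzd5 and Fzd7 did not pass the test in either comparison, with adjusted p of 0.12 or more.

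Both secretion factors changed in both comparisons, in opposite directions to one another. Wls, the carrier of Wnt ligands, was 13.42 and 13.34 in Pan02OE, 14.06 and 14.22 in Pan02OE-CTL, 13.90 and 14.11 in the arrays labelled Pan02KD and 12.51 and 12.56 in Pan02KD-CTL. Pan02KD-CTL was the lowest line and the other lines lay above it without overlap. Wls fell 1.69-fold in Pan02OE (-0.76 ± 0.15, SE, limma adjusted p = 0.0087) and rose 2.77-fold in the arrays labelled Pan02KD (1.47 ± 0.15, SE, adjusted p = 0.00038). The fall in Pan02OE was not called without either Pan02OE-CTL array or without the H2O2 array of Pan02OE (adjusted p up to 0.098).

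Porcn, the enzyme that attaches the lipid, was 10.69 and 10.79 in Pan02OE, 10.04 and 10.16 in Pan02OE-CTL, 10.25 and 10.04 in the arrays labelled Pan02KD and 11.36 and 10.86 in Pan02KD-CTL. Pan02OE-CTL and the arrays labelled Pan02KD formed the lower pair and overlapped. Porcn rose 1.56-fold in Pan02OE (0.64 ± 0.19, SE, limma adjusted p = 0.048) and fell 1.95-fold in the arrays labelled Pan02KD (-0.96 ± 0.19, SE, adjusted p = 0.0093). The first call was lost in 6 of 8 fits that left out 1 array, including all 4 that left out an array of Pan02OE or Pan02OE-CTL (adjusted p up to 0.32), and the second was lost without either array labelled Pan02KD or without the normal-medium array of Pan02KD-CTL (adjusted p up to 0.10).

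Rspo3, an R-spondin that binds Lgr receptors and keeps Frizzled proteins at the surface, was the 1 agonist above background. It was 7.40 and 7.79 in Pan02OE, 5.73 and 5.30 in Pan02OE-CTL, 5.30 and 5.02 in the arrays labelled Pan02KD and 8.36 and 8.48 in Pan02KD-CTL. Pan02OE-CTL and the arrays labelled Pan02KD lay within the background range and overlapped. Rspo3 was at least 1.09-fold higher in Pan02OE than in its control (measured difference 2.08 ± 0.21, SE, limma adjusted p = 0.00019) and at least 1.93-fold lower in the arrays labelled Pan02KD (measured difference -3.26 ± 0.21, SE, adjusted p = 2.1e-05). Both calls held whichever array was left out.

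In the destruction complex only Axin1, the scaffold, passed a test. It was 10.89 and 10.74 in Pan02OE, 11.59 and 11.58 in Pan02OE-CTL, 11.30 and 11.11 in the arrays labelled Pan02KD and 11.15 and 11.03 in Pan02KD-CTL. It fell 1.71-fold in Pan02OE (-0.77 ± 0.15, SE, limma adjusted p = 0.0064), a call lost without the H2O2 array of Pan02OE or of Pan02OE-CTL (adjusted p up to 0.073). In the arrays labelled Pan02KD the difference was 0.12 ± 0.15 (SE, adjusted p = 0.69) and the lines overlapped. Apc, a second scaffold of the complex, was 10.72 and 10.89, 11.16 and 10.99, 11.30 and 11.25, and 11.16 and 11.00 in the same order of lines, with adjusted p of 0.33 in Pan02OE and 0.52 in the arrays labelled Pan02KD.

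The ligands above background were Wnt7b, which is known for its part in lung development, and Wnt10a, for teeth and hair. Wnt7b was 14.08 and 14.29 in Pan02OE, 14.27 and 14.35 in Pan02OE-CTL, 13.69 and 13.00 in the arrays labelled Pan02KD and 13.71 and 12.92 in Pan02KD-CTL. Neither comparison of the study separated its lines (-0.13, 95% interval -0.70 to 0.44, adjusted p = 0.81, and 0.03, 95% interval -0.54 to 0.60, adjusted p = 0.97). Wnt10a differed by -0.08 in Pan02OE (adjusted p = 0.90) and by 0.36 in the arrays labelled Pan02KD (adjusted p = 0.45), again with no call.

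Wnt4 and Dkk2 are named because they passed the tests although no line mean cleared background, and they were chosen after their values were seen. Wnt4, a ligand needed in mouse kidney and female reproductive tract, was 6.03 and 5.97 in Pan02OE, 7.55 and 7.25 in Pan02OE-CTL, 6.81 and 6.99 in the arrays labelled Pan02KD and 5.98 and 6.31 in Pan02KD-CTL. Dkk2 was 5.42 and 4.80, 7.40 and 7.53, 6.20 and 5.97, and 5.49 and 5.26 in the same order of lines. For both genes 1 array of Pan02OE-CTL exceeded 7.48 and no other array did, so no fold is given. Both were lower in Pan02OE than in its control (adjusted p = 0.00085 and 4.8e-05) and higher in the arrays labelled Pan02KD (adjusted p = 0.025 and 0.036). The Dkk2 call in the arrays labelled Pan02KD was lost without any 1 array of either line (adjusted p up to 0.20), and that of Wnt4 without either array labelled Pan02KD or the normal-medium array of Pan02KD-CTL (adjusted p up to 0.21).

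**Figure D2:**
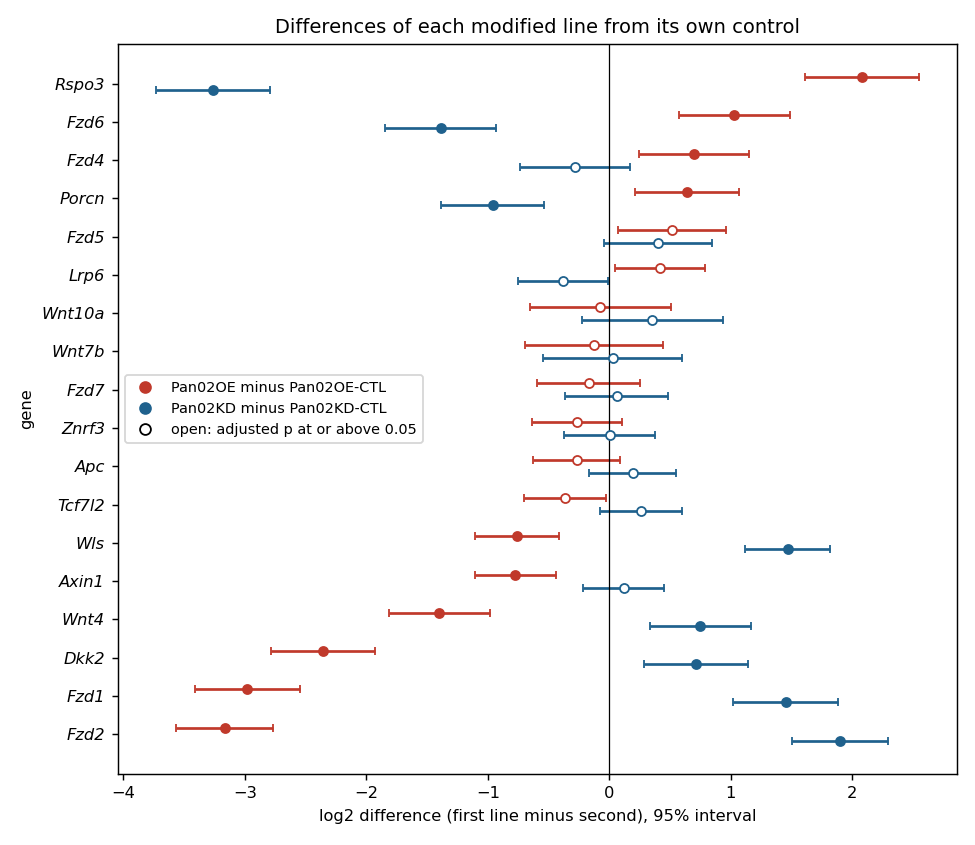
Log2 difference of each modified line from its own control (x axis, with 95% intervals from limma) for the 16 members above background and for Wnt4 and Dkk2 (y axis). Red is Pan02OE minus Pan02OE-CTL, blue the arrays labelled Pan02KD minus Pan02KD-CTL, and filled points have an adjusted p under 0.05, as in Fzd2 (-3.17 and 1.90) and Rspo3 (2.08 and -3.26). Rspo3, Fzd4, Wnt4 and Dkk2 had at least 1 line in the background range, where the plotted difference is not a fold.

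Whether the 2 comparisons themselves differed was tested as the first difference minus the second. It passed for 11 of 55 members (20%), where 22.3% of all genes passed. The value was -5.06 ± 0.25 (SE) for Fzd2 (limma adjusted p = 1.7e-06), 5.34 ± 0.30 for Rspo3 (adjusted p = 3.4e-06) and -4.43 ± 0.27 for Fzd1 (adjusted p = 5.7e-06). For Rspo3 this is a difference of measured signals, since Pan02OE-CTL and the arrays labelled Pan02KD lay in the background range, and not a fold, and the same holds for Fzd4 below, whose Pan02OE-CTL arrays lay there. Fzd6, Porcn and Wls followed at 2.42, 1.60 and -2.23. Axin1 passed at -0.89 (adjusted p = 0.013), Fzd4 at 0.98 (adjusted p = 0.034) and Lrp6 at 0.80 (adjusted p = 0.035), but each of these 3 calls was lost in 3 or more of the 8 fits that left out 1 array.

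The controls were compared with each other because each comparison reads against its own. Pan02KD-CTL and Pan02OE-CTL differed in 13 of 55 members (23.6%), where 16.9% of all genes differed, and this comparison shares control arrays with both of those above. Fzd1 was 10.0-fold lower in Pan02KD-CTL (difference -3.33, limma adjusted p = 5e-06), Fzd2 7.67-fold lower (-2.94, adjusted p = 6.5e-06) and Wls 3.03-fold lower (-1.60, adjusted p = 0.00012). Rspo3 was at least 1.93-fold higher (adjusted p = 2e-05) and Porcn 2.01-fold higher (adjusted p = 0.0057), a call lost without the normal-medium array of Pan02OE-CTL (adjusted p up to 0.069). Of the 13 calls 7 were lost in at least 1 fit that left out an array. For Fzd1 the difference between controls, -3.33, stood beside -2.98 in Pan02OE and 1.45 in the arrays labelled Pan02KD. Vector system and transduced population cannot be told apart in these lines.

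Set across systems, the share of members that separated a modified line from the control of the other system was close to that of all genes. Pan02OE differed from Pan02KD-CTL in 4 of 55 members (7.27%, beside 6.37% of all genes): Fzd5, Lrp5 and Wls were higher and Rspo3 lower, the last with an adjusted p that rounds to 0.05. The arrays labelled Pan02KD differed from Pan02OE-CTL in 5 (9.09%, beside 7.63% of all genes), namely Dkk2, Fzd1, Fzd2, Fzd6 and Lrp5, all lower. Wls in these lines differed by -0.13 (95% interval -0.48 to 0.21, adjusted p = 0.73).

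The lines were also averaged by vector system. NLRX1 overexpression is part of that average, since Nlrx1 itself was higher over the overexpression system by a measured log2 difference of 5.65. Vector system and NLRX1 overexpression cannot be told apart in it. Over Pan02OE and Pan02OE-CTL, 8 of 55 members (14.5%) were higher than over the arrays labelled Pan02KD and Pan02KD-CTL and 0 were lower, where 11% of all genes differed and 5.55% were higher. For Fzd5, Wnt7b, Tcf7l2 and Lrp5 all arrays of the overexpression system lay above all of the knockdown system. That is description only, since the share of all genes that separated this way was not counted. Fzd5 was 10.44 and 10.61 in Pan02OE and 10.19 and 9.83 in Pan02OE-CTL, against 9.46 and 9.67 in the arrays labelled Pan02KD and 8.95 and 9.37 in Pan02KD-CTL (difference 0.90 ± 0.14, SE, limma adjusted p = 0.0033). Wnt7b was 0.92 higher (adjusted p = 0.011) and Tcf7l2, the nuclear factor above background, 0.42 higher (adjusted p = 0.033), while Lrp5 differed by 0.91 within the background range (adjusted p = 0.0041). Fzd1, Fzd6, Wls and Dkk2 made up the rest, and their systems overlapped. Pan02OE lay below the arrays labelled Pan02KD in Fzd1 (line means 8.93 and 10.03), Wls (13.38 and 14.00) and Dkk2 (5.11 and 6.09), against the direction of the average. In Fzd6 the control lines ran against it, at 10.70 in Pan02OE-CTL and 11.06 in Pan02KD-CTL, lines that the test did not separate. Pan02OE was the highest line there and the arrays labelled Pan02KD the lowest. The Wnt7b call was lost without the H2O2 array of Pan02OE-CTL or of Pan02KD (adjusted p up to 0.059), the Tcf7l2 call in 7 of the 8 fits that left out 1 array, and the calls of Wls and Dkk2 in 6 of them.

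No member passed the test for H2O2. Over the 4 lines 0 of 55 members passed, 0% of all genes did, and the smallest adjusted p among members was 0.74. At an unadjusted p under 0.05 there was 1 member, Wnt5b, in the background range, and there were 1231 of 19505 genes. For members above background the mean difference between media ran from -0.32 to 0.11 on the log2 scale. The 1 member that moved at least 2-fold in a line was Wnt10a in Pan02KD-CTL, 12.61 in normal medium and 11.52 in H2O2, a line in which 1.39% of all genes moved that far, against 0.169% to 0.256% in the other lines. Wnt7b was lower in H2O2 by 0.79 in Pan02KD-CTL and by 0.69 in the arrays labelled Pan02KD and higher by 0.20 in Pan02OE, single pairs of arrays that allow no test.

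**Figure D3:**
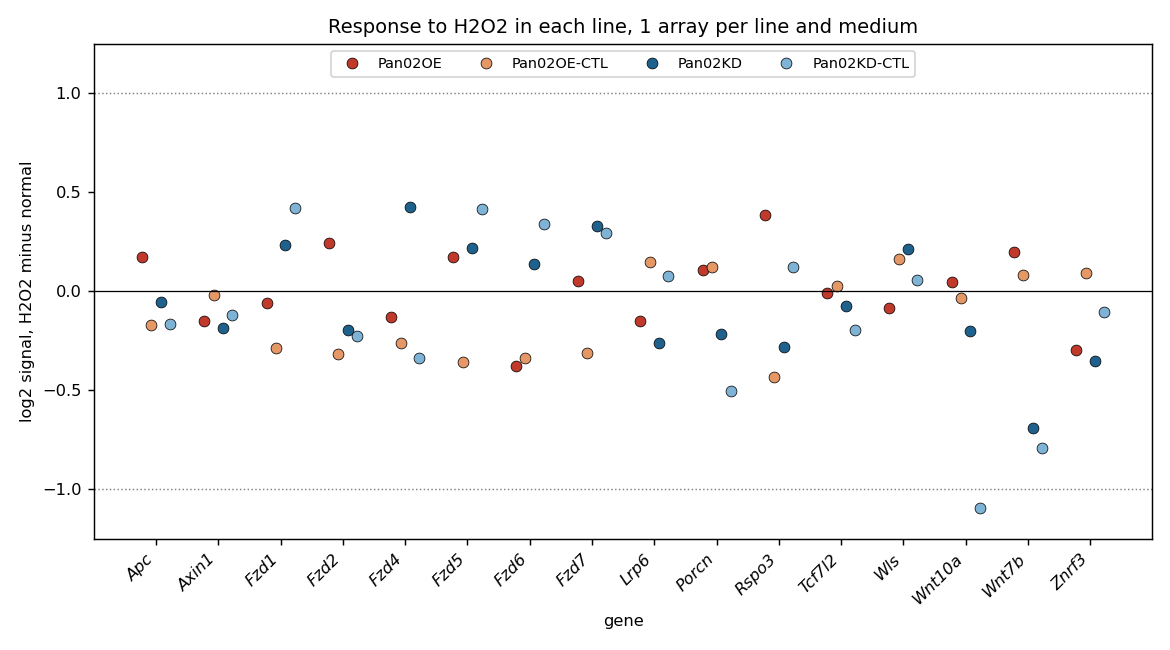
Log2 signal in H2O2 minus that in normal medium (y axis) for the 16 members above background (x axis), 1 point per line from 1 pair of arrays, with dotted lines at 2-fold. Wnt10a in Pan02KD-CTL, at -1.09, is the point beyond 2-fold, and Wnt7b was lower in both lines of the knockdown system.

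The rest of the pathway was read from lists that hold no member. Of 46 other Wnt signalling components, 2 rose and 9 fell in Pan02OE (23.9%), whereas 11 were higher and 1 was lower in the arrays labelled Pan02KD (26.1%). Of all genes 16.5% and 13.6% were called in these comparisons, and of the genes above background, as 34 of the 46 were, 31.4% and 26.3%. The list medians were -0.13 and 0.12, beside 0.04 and -0.0032 over all genes. Lgr5, a receptor of R-spondins and a stem cell marker in mouse intestine, was 5.63 and 6.05 in Pan02OE, 9.78 and 9.85 in Pan02OE-CTL, 7.40 and 7.25 in the arrays labelled Pan02KD and 6.05 and 5.72 in Pan02KD-CTL. Only Pan02OE-CTL showed it above background, at least 5.05-fold over Pan02OE (limma adjusted p = 2.5e-06). Within the background range Lgr5 was also called higher in the arrays labelled Pan02KD than in Pan02KD-CTL (adjusted p = 0.0014). Notum, a secreted enzyme that takes the lipid off Wnts, fell 10.4-fold in Pan02OE (-3.37 ± 0.23, SE, adjusted p = 1.7e-05) and was at least 2.50-fold higher in the arrays labelled Pan02KD than in Pan02KD-CTL (adjusted p = 0.0017). Ctnnbip1, which keeps beta-catenin from TCF factors, fell 1.51-fold (adjusted p = 0.049) and rose 2.58-fold (adjusted p = 0.0011) in the 2 comparisons, and the first call was lost without any 1 array of Pan02OE or Pan02OE-CTL (adjusted p up to 0.29).

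Lgr6, a relative of Lgr5, went the other way: 7.27 and 7.39 in Pan02OE, 4.97 and 5.37 in Pan02OE-CTL, 5.32 and 5.39 in the arrays labelled Pan02KD and 7.95 and 7.67 in Pan02KD-CTL. It cleared background in Pan02KD-CTL alone, where it was at least 1.26-fold above the arrays labelled Pan02KD (limma adjusted p = 5.1e-05). Within the background range it was also called higher in Pan02OE than in its control (adjusted p = 6.8e-05). Amer1, which helps bring Axin to the membrane, was at least 1.10-fold lower in Pan02OE than in its control (adjusted p = 0.00094). It was called higher in the arrays labelled Pan02KD, where neither line mean cleared background (adjusted p = 0.0011).

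Of 32 genes of the routes that bypass beta-catenin and of planar polarity, 2 rose and 8 fell in Pan02OE (31.2%), and with the label Pan02KD 8 were higher and 3 lower (34.4%), against the same 16.5% and 13.6% of all genes, or 31.4% and 26.3% of those above background, as 19 of the 32 were. The list medians were 0.02 and 0.11, beside 0.04 and -0.0032 over all genes. The co-receptors Ptk7 and Ryk fell 2.77-fold and 1.62-fold in Pan02OE (limma adjusted p = 2e-04 and 0.017) and rose 1.51-fold and 1.84-fold in the arrays labelled Pan02KD (adjusted p = 0.028 and 0.007). Prickle1, a core planar polarity protein, fell 2.52-fold and rose 1.56-fold. Plcb1, a phospholipase of the calcium route, fell in both, by 1.94 and by 0.72 on the log2 scale. Nfatc3, a transcription factor that calcium activates, rose 2.22-fold in the arrays labelled Pan02KD, and Camk2g, a calcium-dependent kinase, was at least 1.13-fold higher there. In the arrays labelled Pan02KD the calls of Ptk7, Prickle1 and Camk2g were lost without any 1 array of either line, that of Ryk without any but the normal-medium array of Pan02KD-CTL, and that of Plcb1 in 5 of the 8 fits that left out 1 array (adjusted p up to 0.32). The Ryk call in Pan02OE was lost in 3 of these fits, without either Pan02OE-CTL array or the normal-medium array of Pan02OE.

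Of 42 genes known elsewhere as targets of beta-catenin and TCF, 4 rose and 12 fell in Pan02OE (38.1%), while in the arrays labelled Pan02KD 12 were higher and 7 lower (45.2%), again against 16.5% and 13.6% of all genes, or 31.4% and 26.3% of those above background, as 28 of the 42 were. Nrcam, a neuronal adhesion molecule, was 9.05 and 9.37 in Pan02OE, 16.21 and 16.03 in Pan02OE-CTL, 15.33 and 15.26 in the arrays labelled Pan02KD and 12.13 and 12.06 in Pan02KD-CTL. The 4 lines did not overlap, and the fall in Pan02OE was 120-fold (-6.91 ± 0.17, SE, limma adjusted p = 5e-08). Twist1, a mesenchymal transcription factor, fell 5.58-fold in Pan02OE and rose 2.97-fold in the arrays labelled Pan02KD. Cdx2, an intestinal transcription factor, was at least 3.26-fold higher in Pan02OE (adjusted p = 8.7e-05) and at least 3.17-fold lower in the arrays labelled Pan02KD (adjusted p = 5.8e-05). Ccn2, a matrix protein that other pathways also induce, was at least 3.46-fold lower in the arrays labelled Pan02KD, and Id2, an inhibitor of helix-loop-helix factors, fell in both comparisons, by 0.69 and by 2.09 on the log2 scale, the first a call lost in 7 of the 8 fits that left out 1 array (adjusted p up to 0.41). The list thus held members moving both ways, and its median was -0.06 in Pan02OE and 0.10 in the arrays labelled Pan02KD, beside 0.04 and -0.0032 over all genes. Sox9, Lgr5 and Notum belong to more than 1 of the lists used here, as does Apcdd1.

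Markers of cell state were also called, not all of them in opposite directions. Of the 11 epithelial markers 7 rose and 0 fell in Pan02OE. In the arrays labelled Pan02KD 1 was higher and 5 were lower. The 1 higher there was Cdh1, which had also risen in Pan02OE. Cldn4, called lower there, was not above background in any line. Of all genes, 7.02% rose and 9.49% fell in the first comparison and 7.59% rose and 5.97% fell in the second. Of all genes above background, as 7 of the 11 were, 31.4% and 26.3% were called. The mean log2 signal of the 11 epithelial markers was 10.5 in Pan02OE, 9.59 in Pan02OE-CTL, 9.31 in the arrays labelled Pan02KD and 9.92 in Pan02KD-CTL. Of 10 fibroblast and mesenchymal markers 0 rose and 3 fell in Pan02OE. In the arrays labelled Pan02KD 3 were higher and 1 was lower. The 1 lower there was Pdgfrb, which had also fallen in Pan02OE. Above background in at least 1 line were 5 of the 10 (Vim, Pdgfrb, Dcn, Acta2 and S100a4). Col1a1, Col1a2, Col3a1, Lum and Fap were so in none, though Col3a1 was among the 3 that fell. The mean log2 signal of the 10 markers was 7.46 in Pan02OE, 8.04 in Pan02OE-CTL, 8.37 in the arrays labelled Pan02KD and 7.63 in Pan02KD-CTL. The part of these shifts in the results on Wnt genes was not tested.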

How the data were processed

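The authors hybridised RNA of the 8 cultures to Clariom S mouse arrays and deposited 1 table of log2 signals per probe set, and their processing notes and methods name the Transcriptome Analysis Console. Its version and how it summarised and normalised the probes are not given in the sources used here. Of the 9 columns in the series, that of a manufacturer's control RNA was empty and was not analysed here. Arrays were assigned to lines and media from the sample labels.

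Of 28846 probe sets, 19572 carried 1 gene symbol in the platform annotation. The probe set with the highest mean was kept per gene, which gave 19505 genes. The deposited log2 values were fitted in limma 3.58.1 (R 4.3.3) on the 8 arrays together, with a term for the line and a term for the medium. There were 3 residual and 6.17 prior degrees of freedom. Tests were 2-sided and moderated, with Benjamini-Hochberg adjustment over all genes. The fit was run on simulated arrays with independent noise, only to see that it recovers known shifts. That is no test of the p-values in this design. The number of arrays limits the precision. Where the lower line of a comparison lay in the background range, a bound "at least N-fold" is given. It sets the mean of the brighter line against a floor. In each array of the lower line, the higher of its own signal and its brightest background probe set was taken. The floor is the mean of these values. Alternatives were median centring, cyclic loess, quantile normalisation (added after seeing the data), 2 filters on low signal, other probe set rules, a trended robust variance, no medium term, only the lines compared, and each array left out. Members given array by array were those called in either comparison with a line mean above background, plus Apc, Axin1, Axin2, Lef1, Lrp5 and Lrp6. Of each other list, the 4 called genes with the largest difference in a comparison were named, except 1 that is not reported here. The members, lists and promoter core were chosen with earlier results of these data known.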

Additional observations from a re-analysis of the deposited data

Results flagged for a closer look

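The difference between the 2 comparisons of the study, Pan02OE minus Pan02OE-CTL against the arrays labelled Pan02KD minus Pan02KD-CTL, passed the limma test at an adjusted p under 0.05 for 11 members. It was negative on the log2 scale for Fzd2 (-5.06), Fzd1 (-4.43), Dkk2 (-3.07), Wls (-2.23), Wnt4 (-2.15) and Axin1 (-0.89). It was positive for Rspo3 (5.34), Fzd6 (2.42), Porcn (1.60), Fzd4 (0.98) and Lrp6 (0.80). For Rspo3, Fzd4, Dkk2 and Wnt4 these are differences of measured signals, with at least 1 line in the background range, and not folds.

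In 4 of 55 members the H2O2 minus normal difference of 1 line stood apart from those of the other 3 lines by Dixon's criterion, which chance meets in about 1 of 20 groups. These were Fzd3 in Pan02OE (-0.85), Wnt1 in Pan02OE-CTL (0.20), Wnt16 in the arrays labelled Pan02KD (0.91) and Wnt7a in the arrays labelled Pan02KD (0.53). None of the 4 genes was above background in any line.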

How the results depend on the processing

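Leaving out 1 array at a time moved the number of members called to between 5 and 10 in Pan02OE against Pan02OE-CTL, where the fit of all arrays gave 10. It gave 5 without the H2O2 array of Pan02OE-CTL and 6 without that of Pan02OE. In the arrays labelled Pan02KD against Pan02KD-CTL the range was 5 to 8 (8 with all arrays), with 5 without either array labelled Pan02KD. Between the controls it was 8 to 12 (13 with all arrays), with 8 without the H2O2 array of Pan02OE-CTL, and between vector systems 4 to 8 (8 with all arrays). That count was 4 without the H2O2 array of Pan02OE-CTL or of Pan02KD and 5 without the normal-medium array of Pan02KD or the H2O2 array of Pan02KD-CTL. The test of the difference between comparisons called 8 to 12 members, and H2O2 called 0 throughout. Under the other alternatives the counts were 9 to 11, 6 to 8, 10 to 13 and 11 to 15 for Pan02OE, the arrays labelled Pan02KD, the difference and the controls. Fzd1, Fzd2 and Rspo3 kept their calls in both comparisons in all 18 alternatives run, and no call of the 18 members and the genes of other lists followed in these alternatives changed sign. Other than with arrays left out, Ctnnbip1 and Id2 in Pan02OE lost their calls with median centring, cyclic loess or quantile normalisation, Id2 also with only the lines compared, and in the arrays labelled Pan02KD Ptk7 did with cyclic loess, quantile normalisation or no medium term and Prickle1 with quantile normalisation. Lrp6 between the controls passed with cyclic loess, quantile normalisation, either filter on low signal, the trended robust variance or no medium term, and Axin1 there failed with cyclic loess, quantile normalisation or only the lines compared and in all 8 fits that left out 1 array (adjusted p 0.073 to 0.27). The cause was not tested. Levels under 7.48, the brightest background probe set, cannot be told from background, although differences between line means there were still called, as in Wnt4 and Dkk2. With 1 transduced population per line and 1 array in each medium, a difference between lines cannot be told from one between transduced populations. Arrays of 1 medium were paired across lines by the medium term of the fit, and without it 10, 8, 12 and 15 members were called in Pan02OE, the arrays labelled Pan02KD, the difference and the controls.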
